A study of Mus musculus with 20 samples.

Results

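The genes described here encode proteins of the junctions between endothelial cells, and they were followed in RNA of dermal lymphatic endothelial cells (LECs) of the mouse ear across the day. They were chosen by name and were Cdh5, Pecam1, Cldn5, Esam, F11r, Jam2, Jam3, Tjp1, Ocln and Ctnnb1. All 10 were among the 24062 gene symbols counted, and all 10 passed the filter on low counts, which left 19209 genes to test. Live cells with CD31 and podoplanin on their surface were sorted as LECs at 4 zeitgeber times (ZT, hours from the onset of light), ZT1, ZT7, ZT13 and ZT19, with 5 libraries for each. The mice of all 4 groups were wild-type C57BL/6 (the name in the labels; the methods give C57BL/6N) at postnatal day 56 and received no treatment. Each library was a separate pool of 4 ears from 2 mice, so every n below counts pools.

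Endothelial cells are held together by adherens junctions, in which VE-cadherin binds its like on the next cell and is tied to actin through catenins, and by tight junctions, in which claudins and occludin form strands anchored to ZO proteins. Junctional adhesion molecules (JAMs) and ESAM are immunoglobulin-family proteins that lie along both. In initial lymphatics these proteins are gathered into discontinuous buttons, between which fluid and dendritic cells enter, and in collecting vessels they form continuous zippers. The comparison among time points asks whether the transcripts of this machinery vary with the time of day.

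The sorted cells carried the RNA of LECs. Of 16 LEC markers, 15 were detected, and Mmrn1, Lyve1 and Reln had the highest mean normalised counts (26865, 16601 and 14380). Ccl21a, which has near-identical copies in the mouse genome, was at 0 counts in all 20 libraries. Markers of keratinocytes, the epithelial cells of the epidermis, were also abundant despite the sort. All 16 were present, led by Krt14, Krt15 and Krt5, and their summed normalised count ranged from 12613 to 34574 at ZT13 and from 101035 to 198269 at ZT19. Libraries further differed in the share of reads that fell on a gene rather than on no gene, which ranged from 12.7% to 81.6%. It was above 50% in 6 libraries, namely ZT7 replicate 2, ZT13 replicate 5 and ZT19 replicates 1, 2, 3 and 5. Reads on genes ranged from 4475111 to 42002363 per library (median 9379794). In bulk RNA, fewer cells of a type and less RNA per cell cannot be told apart.

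Molecular clocks act on many promoters through E-boxes, and the promoters of 5 of the 10 genes were found in the RefSeq table (build GRCm38.p6). Those of F11r and Tjp1 are shown because F11r had the smallest p of the 10 for a change with the share on genes and Tjp1 was among the genes with the smallest p among time points. Each line gives the 250 bases before the RefSeq start, 5′ to 3′ on the gene's strand, at chr1:171437311-171437560 (+ strand) and chr7:65371245-65371494 (− strand), with the GC box GGGCGG or its reverse complement CCGCCC in capitals.
F11r: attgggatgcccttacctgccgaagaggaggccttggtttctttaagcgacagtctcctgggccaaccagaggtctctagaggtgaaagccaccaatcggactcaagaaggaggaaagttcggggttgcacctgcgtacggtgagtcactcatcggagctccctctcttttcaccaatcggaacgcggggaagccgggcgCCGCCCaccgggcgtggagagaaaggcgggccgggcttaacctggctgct
Tjp1: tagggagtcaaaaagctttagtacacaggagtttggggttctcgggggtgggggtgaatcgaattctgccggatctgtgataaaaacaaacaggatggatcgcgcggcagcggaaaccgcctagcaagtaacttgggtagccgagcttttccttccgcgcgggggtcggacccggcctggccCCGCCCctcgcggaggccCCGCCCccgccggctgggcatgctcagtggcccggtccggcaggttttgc
The F11r window held 1 GC box and the Tjp1 window held 2, and 35.7% of the 32851 promoter windows of 300 bases in the table held at least 1. The E-box CACGTG, which reads the same on both strands, was in 7.15% of all windows and CACGTT on either strand was in 4.68%, and none of the 7 windows of F11r, Tjp1, Ctnnb1, Ocln and Cldn5 held either. That says only that these letters were absent from these 300 bases. The windows of Tjp1 and Ctnnb1 lie inside the annotated span of their genes (chr7:65296165-65527781 for Tjp1), so they precede an internal start. The outermost starts of these 2 genes were not examined.

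In the comparison of all 4 time points, the quasi-likelihood F-test of edgeR called 0 of the 10 junction genes at a Benjamini-Hochberg adjusted p under 0.05, against 0.422% of all genes tested, and DESeq2 called 0 of the 10 and 647 of all genes. At an unadjusted p under 0.05 there were 3 of the 10, Cdh5, Tjp1 and Esam, against 15.7% of all genes. For a rhythm with a period of 24 h, edgeR called 0 of the 10 (0.0312% of all genes) and 0 at an unadjusted p under 0.05 (9.23% of all genes), and DESeq2 called 82 of all genes and 0 of the 8 junction genes to which it gave an adjusted p, with none given for Jam2 and Ocln. The median range between the highest and the lowest time point was 1.01 on the log2 scale for the 10 genes and 1.2 for all genes tested.

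The 6 pairs of time points gave 0 of the 10 genes at an adjusted p under 0.05 in edgeR each. Of all genes tested, that threshold was passed by 0.00521% between ZT1 and ZT7, 0.0208% between ZT1 and ZT13, 0.0156% between ZT1 and ZT19, 0.0937% between ZT7 and ZT13, 0.0156% between ZT7 and ZT19 and 0.588% between ZT13 and ZT19. Unadjusted p under 0.05 were found in 0 of the 10 between ZT1 and ZT7 (4.97% of all genes), between ZT1 and ZT13 (5.37%) and between ZT7 and ZT13 (2.59%), and in 1 between ZT7 and ZT19 (19.7%), which was Esam. They were found in 3 of the 10 between ZT1 and ZT19 (21.6% of all genes), namely Cdh5, Tjp1 and Esam, and in 5 between ZT13 and ZT19 (19.2%), namely those and Jam2 and Jam3. Esam had its higher mean at ZT19 in these pairs and the others their lower mean. DESeq2, which called 2192 of all genes between ZT1 and ZT19 and 1998 between ZT13 and ZT19, called Cdh5 and Tjp1 lower at ZT19 in both (adjusted p = 0.0159 and 0.0231, then 0.0189 and 0.0382) and Jam2 lower at ZT19 than at ZT13 (0.0439). In the other 4 pairs it called none of them, against 2576 of all genes between ZT7 and ZT19, 89 between ZT7 and ZT13, 71 between ZT1 and ZT13 and 12 between ZT1 and ZT7. It gave no adjusted p for Jam2 between ZT1 and ZT7 or ZT13, nor for Ocln between ZT1 and ZT7.

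**Figure D1:**
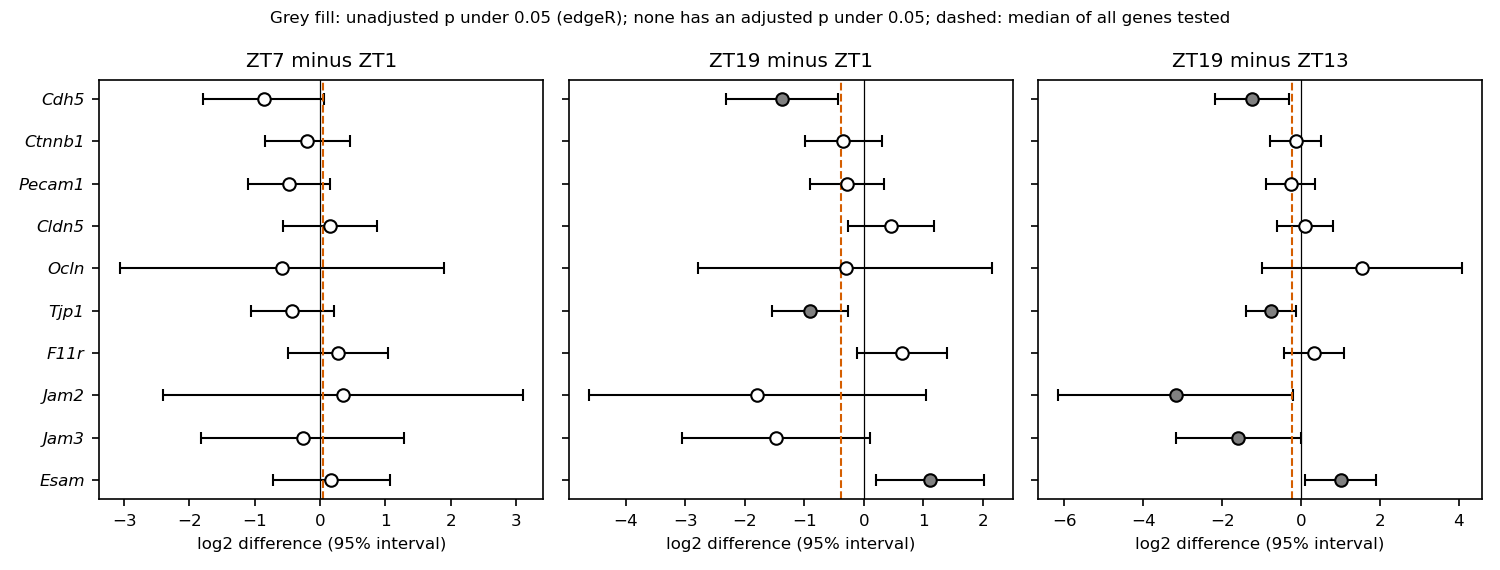
Log2 difference of each junction gene between 2 time points (x axis, points, with the 95% interval as bars) from edgeR over all 20 libraries, in the panels ZT7 minus ZT1, ZT19 minus ZT1 and ZT19 minus ZT13. Grey fill marks an unadjusted p under 0.05 and the dashed line is the median of all genes tested, which was -0.39 for ZT19 minus ZT1.

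Cdh5 encodes VE-cadherin, the homophilic adhesion molecule of endothelial adherens junctions (chr8:104101625-104144511, + strand, 12 exons in its longest transcript). Its normalised count in replicates 1 to 5 was 3409, 4372, 3265, 3231 and 5622 at ZT1 and 3345, 1089, 2839, 1870 and 1825 at ZT7. At ZT13 it was 3964, 5614, 3372, 4228 and 928, and at ZT19 it was 631, 975, 953, 3700 and 1413. The low values thus stood in 1 library each of ZT7 and ZT13 and in 4 of ZT19, and the groups overlapped in every pair. Cdh5 was 1.38 ± 0.457 (SE) higher at ZT1 than at ZT19 on the log2 scale (n = 5 and 5; edgeR, adjusted p among time points 0.244, adjusted p for the pair 0.1), and the difference was 0.11 ± 0.59 without the 6 libraries with more than 50% of reads on genes, a fit that leaves 1 library at ZT19 and assumes that it varies like the rest. Without ZT19 replicate 4 alone it was 2.01 and passed the threshold (adjusted p = 0.0497 among time points).

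Ctnnb1 encodes β-catenin, which links cadherin tails to the actin cytoskeleton and also acts in Wnt signalling (chr9:120929216-120960507, + strand, 15 exons). It was among the steadiest of the 10, between 4308 and 6809 normalised counts at ZT1, 2794 and 6489 at ZT7, 3406 and 5938 at ZT13 and 3261 and 5423 at ZT19. The groups overlapped throughout, and ZT1 stood 0.35 ± 0.318 (SE) above ZT19 on the log2 scale (95% interval of ZT19 minus ZT1, -0.997 to 0.307; edgeR, adjusted p among time points 0.904). Without ZT13 replicate 3, a library of neither group, the difference was 0.13. Leaving that library out also moved the median of all genes tested for ZT19 minus ZT1 from -0.388 to -0.195, so the shift was not particular to Ctnnb1. Without the 6 libraries with more than 50% of reads on genes the difference of Ctnnb1 was 0.58 ± 0.608. Of its exon bases, 14.6% overlap Ulk4 on the other strand, and the library kit does not mark strand.

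Pecam1 encodes CD31, the immunoglobulin-family protein at endothelial contacts by which these cells were sorted (chr11:106654217-106750628, − strand, 16 exons). Its normalised count was 4705, 4182, 4516, 4284 and 4839 at ZT1 and 2769, 4162, 4028, 2841 and 2394 at ZT7. All 5 libraries of ZT1 lay above all 5 of ZT7, by a narrow margin between 4182 and 4162. Scaled by RLE or to endothelial markers the groups of Pecam1 overlapped, and those of Cdh5 did not. By the TMM scaling used here, Pecam1 was the only junction gene without overlap in that pair (1 of 10, against 1.75% of all genes). The difference of 0.48 ± 0.305 (SE) on the log2 scale had an unadjusted p of 0.13 in edgeR (adjusted p = 0.999). It was 0.32 without ZT13 replicate 3, a library of neither group whose removal moved other genes as well, as given for Ctnnb1. ZT13 ranged from 3199 to 5821 and ZT19 from 2540 to 5037. In the other pairs 0 of the 10 genes were without overlap, against 1.47% of all genes for ZT1 and ZT13, 8.56% for ZT1 and ZT19, 1.0% for ZT7 and ZT13, 1.94% for ZT7 and ZT19 and 2.48% for ZT13 and ZT19. The standard deviation of Pecam1 at ZT1 was 6.13% of its mean, the smallest of the 40 combinations of junction gene and time point.

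**Figure D2:**
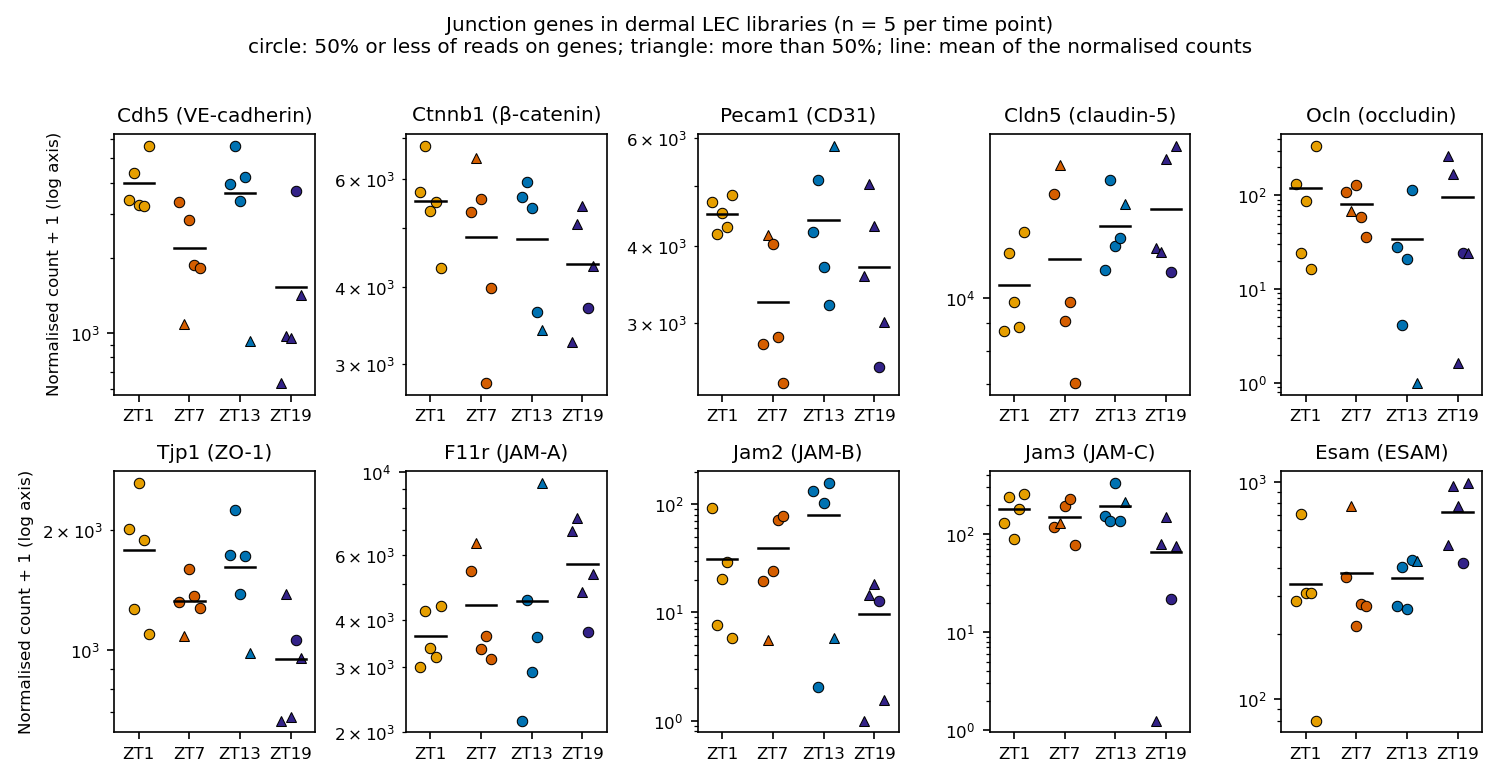
Normalised count plus 1 (y axis, logarithmic) of each junction gene in the 5 libraries of each time point (x axis), with a line at the mean. Triangles are the 6 libraries with more than 50% of reads on genes, which hold the 6 lowest values of Cdh5, and circles are the other 14.

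Cldn5 encodes claudin-5, the main strand-forming claudin of endothelium, in a single exon (chr16:18776847-18778262, + strand). It was abundant everywhere, from 8712 to 13117 normalised counts at ZT1, 7018 to 17332 at ZT7, 11218 to 16269 at ZT13 and 11123 to 18773 at ZT19. Its means ran from 10511 ± 1975 (SD, n = 5) at ZT1 to 14411 ± 3574 at ZT19, with overlap between every pair. The difference between these was 0.46 ± 0.351 (SE) on the log2 scale (95% interval, -0.26 to 1.17; edgeR, adjusted p among time points 0.817), and it was 0.08 ± 0.644 without the 6 libraries with more than 50% of reads on genes and 0.93 with an offset for a trend of counts on transcript length in each library.

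Ocln encodes occludin, a membrane protein of tight junctions that is also made by epithelia (chr13:100496507-100552718, − strand, 9 exons). It was scarce and scattered in these libraries. Replicates 1 to 5 gave 131, 23.5, 85.7, 15.5 and 338 normalised counts at ZT1, 108, 66.3, 129, 57.9 and 34.7 at ZT7, 27.2, 3.18, 19.8, 114 and 0 at ZT13, and 264, 166, 0.646, 23.2 and 23.2 at ZT19. Each time point after ZT7 held at least 1 library with 3 reads or fewer, and at ZT13 replicate 5, with 0 reads, 3 counts would stand for 0.648. The largest difference, ZT1 over ZT13, was 1.85 ± 1.25 (SE) on the log2 scale (95% interval of ZT13 minus ZT1, -4.41 to 0.71; edgeR, adjusted p among time points 0.789), so a change of several-fold was not detectable at this depth and spread. It rested on single libraries, at 0.97 without ZT1 replicate 5 and 3.28 without ZT13 replicate 4.

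Tjp1 encodes ZO-1, the scaffold that ties claudins, occludin and JAMs to actin (chr7:65296165-65527781, − strand, 28 exons). Its normalised count was 2021, 1270, 2626, 1896 and 1101 at ZT1 and 1321, 1086, 1597, 1371 and 1279 at ZT7. At ZT13 it was 1730, 2246, 1386, 1724 and 987, and at ZT19 it was 666, 1383, 678, 1064 and 956. ZT19 held the lowest libraries but overlapped each of the others. Tjp1 was 0.91 ± 0.31 (SE) higher at ZT1 than at ZT19 on the log2 scale (edgeR, adjusted p among time points 0.289, adjusted p for the pair 0.103). Its transcript is the longest of the 10 (7.05 kb), and with the same offset for length its difference was -0.13.

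F11r encodes JAM-A, a homophilic junctional adhesion molecule of endothelium and epithelium that leukocytes also use (chr1:171437535-171464603, + strand, 10 exons). Its normalised count was 3004, 4248, 3374, 3185 and 4370 at ZT1 and 5416, 6455, 3341, 3623 and 3156 at ZT7. At ZT13 it was 2151, 4542, 2900, 3606 and 9345, and at ZT19 it was 6943, 7558, 4771, 3730 and 5313. Its 4 highest libraries were ZT13 replicate 5, ZT19 replicates 2 and 1 and ZT7 replicate 2, each with more than 50% of reads on genes. F11r was 0.64 ± 0.372 (SE) higher at ZT19 than at ZT1 on the log2 scale (edgeR, adjusted p among time points 0.720), with overlap between the groups. With this share as a covariate the same difference was -0.23, and without the 6 libraries above 50% it was 0.03 ± 0.58. With the level of keratinocyte markers as a covariate it was 1.01 and with the length offset 1.31. The summed keratinocyte markers of those 4 libraries were 13490, 101035, 149302 and 187387 normalised counts in the same order, and their part in the level of F11r was not tested.

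Jam2 encodes JAM-B, a partner of JAM-C on endothelium (chr16:84774123-84825928, + strand, 10 exons). Its normalised count was 90.3, 6.71, 19.5, 27.9 and 4.79 at ZT1 and 18.4, 4.57, 23.3, 69.8 and 75.9 at ZT7. At ZT13 it was 131, 1.06, 101, 155 and 4.75, and at ZT19 it was 0, 13.5, 17.4, 11.6 and 0.552. At ZT13, 3 libraries were above all of ZT19, and the other 2 were not. Jam2 was 3.18 ± 1.45 (SE) higher at ZT13 than at ZT19 on the log2 scale (edgeR, adjusted p among time points 0.546, adjusted p for the pair 0.227), a fit to counts as low as 0 in ZT19 replicate 1, where 3 counts would stand for 0.766. The difference was 0.89 ± 1.19 once the model held the share on genes and 5.46 once it held the level of keratinocyte markers.

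Jam3 encodes JAM-C, which binds JAM-B and takes part in cell polarity and leukocyte passage (chr9:27097384-27155421, − strand, 9 exons). Replicates 1 to 5 gave 129, 237, 87.2, 181 and 256 normalised counts at ZT1 and 116, 129, 193, 227 and 75.9 at ZT7. At ZT13 it was 151, 135, 329, 134 and 213, and at ZT19 it was 0.255, 78, 147, 20.6 and 74. All but 1 library of ZT19 lay below the lowest of ZT13. The difference between ZT13 and ZT19 was 1.59 ± 0.772 (SE) on the log2 scale (edgeR, adjusted p among time points 0.561, adjusted p for the pair 0.259), and 3.13 ± 1.11 without the 6 libraries above 50% on genes, which leaves ZT19 with replicate 4 alone. In the annotation, 36.2% of its exon bases overlap the antisense gene Gm48796, and without strand the reads of the pair cannot be told apart.

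Esam encodes ESAM, an endothelial adhesion molecule of tight junctions that binds the scaffold MAGI-1 (chr9:37528078-37538319, + strand, 7 exons). Replicates 1 to 5 gave 281, 710, 307, 306 and 79 normalised counts at ZT1 and 364, 774, 216, 272 and 268 at ZT7. At ZT13 it was 269, 406, 260, 434 and 431, and at ZT19 it was 512, 950, 769, 422 and 983. ZT19 held the 2 highest libraries and had the highest mean, 727 ± 253 (SD, n = 5) against 337 ± 229 at ZT1. Esam was 1.11 ± 0.441 (SE) higher at ZT19 than at ZT1 on the log2 scale (edgeR, adjusted p among time points 0.3, adjusted p for the pair 0.144). Without the 6 libraries above 50% on genes the difference was 0.32 ± 0.724.

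Cdh5 was lower and F11r mostly higher in the libraries with a high share of reads on genes than in the rest. In the 6 libraries with more than 50% of reads on genes, Cdh5 ranged from 631 to 1413 normalised counts and F11r from 4771 to 9345. In the other 14, Cdh5 ranged from 1825 to 5622 and F11r from 2151 to 5416. F11r divided by Cdh5 was 3.76 to 11 in the first and 0.543 to 1.94 in the second, with no overlap. These 2 genes had opposite slopes on the share, so the separation of their ratio by that share is no separate result. How many of all genes separate the same libraries was not counted, and 32.1% of all genes moved with the share within time points. At ZT1, where the share was 20.2% to 29.5%, the ratio stayed between 0.777 and 1.03, and the 2 libraries highest in Cdh5 were also the 2 highest in F11r. The 1 library of ZT19 with a share below 50% (35%), replicate 4, had 3700 normalised counts of Cdh5 and 3730 of F11r.

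**Figure D3:**
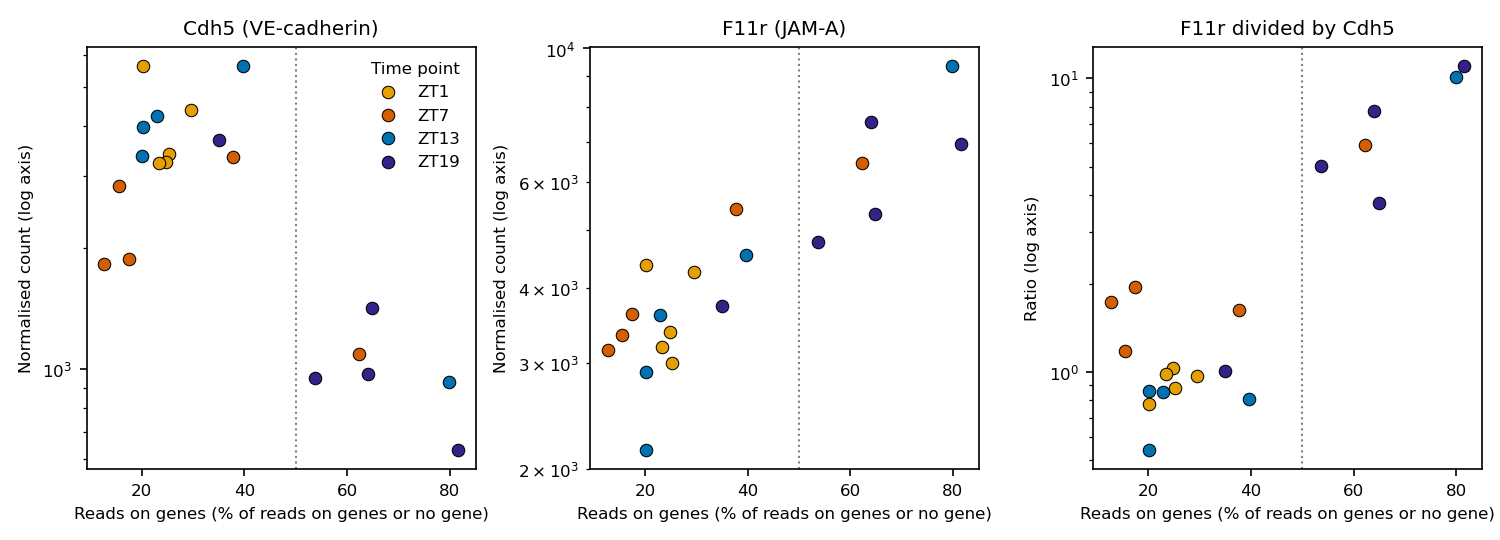
Normalised count of Cdh5 (left) and F11r (middle) and their ratio (right), on logarithmic y axes, against the share of reads on genes among reads on genes or on no gene (x axis, %). Each point is 1 of 20 libraries coloured by time point, and the ratio is above 3.7 in the 6 libraries right of the dotted line at 50% and below 2 in the others.

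Within time points, the slope of each gene on the share was fitted in edgeR, with the share as log2 odds and the time point in the model. It passed an adjusted p of 0.05 for 3 of the 10 junction genes, against 32.1% of all genes tested, 5213 with a negative and 949 with a positive slope, so the count is near that of all genes. With the length offset the split was 5855 positive and 4328 negative (53% of all genes), and 7 of the 10 passed, all but Cdh5, Jam3 and Ocln. F11r was higher by 0.37 ± 0.0777 (SE) on the log2 scale for each doubling of the odds (adjusted p = 0.00122). Its slope was above that of 98.5% of all genes and passed the threshold in each of the 24 alternatives run. Cdh5 was lower with a slope of -0.45 ± 0.13 (adjusted p = 0.0106), which no longer passed with the length offset (-0.15, adjusted p = 0.463), without ZT13 replicate 5 (-0.34, adjusted p = 0.113), without ZT19 replicate 4 (-0.33, 0.0714) or without ZT19 (-0.33, 0.116). Jam2 was lower with a slope of -1.22 ± 0.424 (adjusted p = 0.0296), which did not pass without ZT7 replicate 2 (0.057) or ZT13 replicate 5 (0.0926). Neither slope stood apart, as 39.8% of all genes had a lower slope than Cdh5 and 26.9% a lower one than Jam2. The slopes of Pecam1, Cldn5 and Ctnnb1 were between 0.02 and 0.17 and did not pass, nor did that of Esam (0.31 ± 0.128, adjusted p = 0.0662). What sets the share was not tested, and 4 of the 6 libraries with a high share belonged to ZT19, so that time point and share can be told apart only in part.

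**Figure D4:**
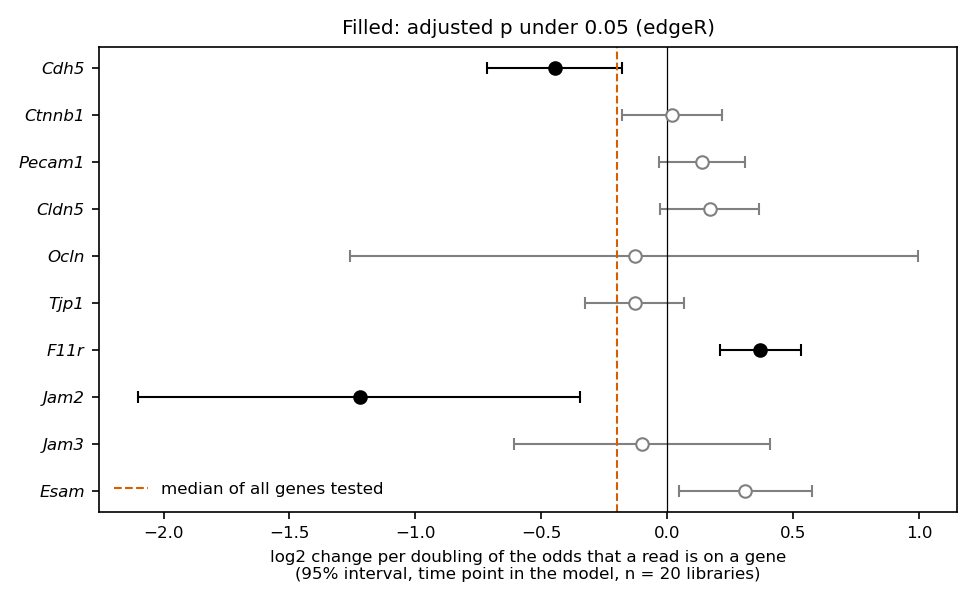
Slope of each junction gene on the log2 odds that a read is on a gene (x axis, log2 change per doubling of the odds, with the 95% interval) from edgeR with time point in the model, over 20 libraries. Filled points passed an adjusted p of 0.05, which were Cdh5 and Jam2 below 0 and F11r above it, and the dashed line is the median slope of all genes tested, -0.20.

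Per transcript length, the 10 genes differed widely in level. Cldn5 led with 1890 ± 651 TPM (counts per length of the longest transcript, scaled to the same total in each library; mean ± SD, n = 20), above F11r in all 20 libraries. F11r (402 ± 236), Ctnnb1 (285 ± 77.4), Pecam1 (248 ± 87.6) and Cdh5 (139 ± 62.9) followed, with F11r above Ctnnb1 in 13 of 20 libraries, Ctnnb1 above Pecam1 in 15, Pecam1 above Cdh5 in 16 and Cdh5 above Esam in 15. The order of the means differed between time points. Ctnnb1 (mean 267) was above F11r (250) at ZT1, and Esam (86.8) was above Cdh5 (71.5) at ZT19. ZT19 replicate 4, with the lowest share of reads on genes in its group (35%), had 3700 normalised counts of Cdh5 and 422 of Esam. The other libraries of ZT19, with shares of 53.7% to 81.6%, had 631 to 1413 of Cdh5 and 512 to 983 of Esam. The part of this share in the order was not tested. Esam (52.7 ± 33.8) and Tjp1 (42.2 ± 14.3) could not be ordered, since Esam was the higher in 9 of 20 libraries and over all exons of each gene their means changed places. Jam3 (16.2 ± 10.1) was below Tjp1 in all 20 libraries. Ocln (4.32 ± 4.82) and Jam2 (1.98 ± 2.43) were the lowest, with SDs above their means. In RNA, Cldn5 thus stood far above Ocln, and F11r above Jam3 and Jam2. These libraries also held keratinocyte RNA, and protein was not measured in them.

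**Figure D5:**
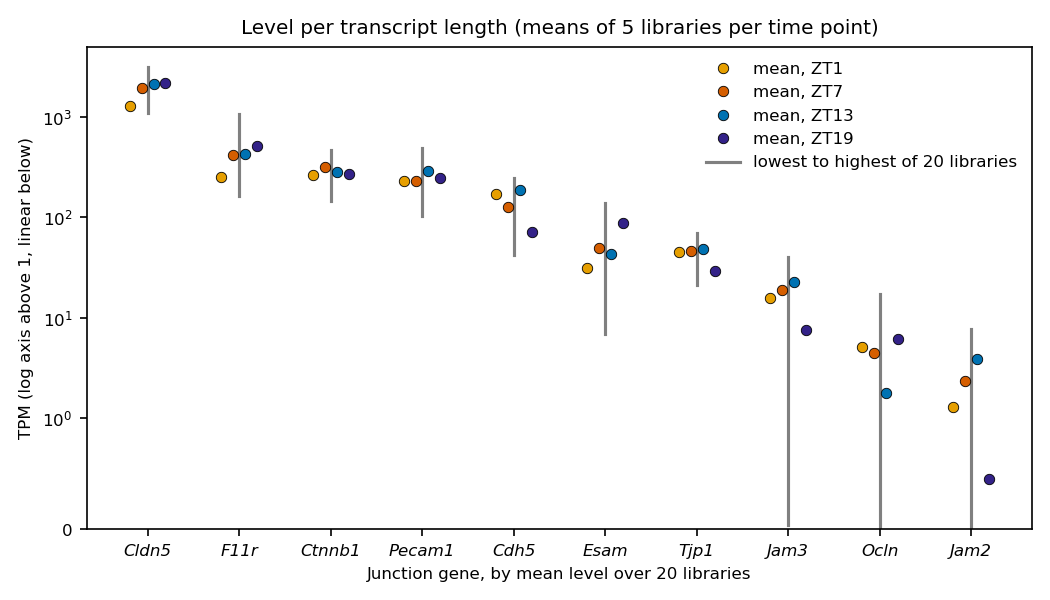
Level of each junction gene in TPM (y axis, logarithmic above 1 and linear below), ordered by the mean over 20 libraries. Points are means of the 5 libraries of a time point and bars run from the lowest to the highest library, as from 1110 to 3180 TPM for Cldn5.

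Genes that work with these 10 at the junction were counted as 5 lists of 71 genes in all. Among the time points edgeR called 0 of the 71 at an adjusted p under 0.05, and 8 at an unadjusted p under 0.05, or 11.3% against 15.7% of all genes, while DESeq2 called 2. Adherens partners had 1 of 14 at an unadjusted p under 0.05, the phosphatase of VE-cadherin Ptprb, with mean normalised counts of 2145 ± 824 (SD, n = 5) at ZT1 and 836 ± 599 at ZT19 (edgeR, adjusted p = 0.282), followed by Ptprj (0.342) and Pkp4 (0.377). Tight strand partners had 1 of 16, claudin-1, 732 ± 617 at ZT7 and 246 ± 92.9 at ZT13 (Cldn1, adjusted p = 0.298), followed by Cldn11 (0.476) and Marveld1 (0.499). Scaffolds had 1 of 14, angiomotin-like 1, 3797 ± 1195 at ZT1 and 1611 ± 586 at ZT19 (Amotl1, adjusted p = 0.264), followed by Magi3 (0.446) and Pard3 (0.476). Genes of Rap1 and RhoA control, small GTPases that tighten or loosen junctions, had 1 of 17, Rapgef1 (adjusted p = 0.254), followed by Rap1b (0.372) and Rapgef6 (0.429).

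Of the 10 gap junction genes, edgeR called 0 among time points at an adjusted p under 0.05 and 4 at an unadjusted p under 0.05. That was 40%, against 15.7% of all genes. Between ZT13 and ZT19 it called 2 of the 10 at an adjusted p under 0.05, both higher at ZT19, against 0.588% of all genes. Gja1 and Gja4, connexins of endothelium, had mean normalised counts of 1561 and 1906 over the 20 libraries. Their adjusted p among time points was 0.762 and 0.595 in edgeR. Of 16 keratinocyte markers, 9 were higher at ZT19 than at ZT13 by the same tool.

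The genes most like each junction gene were sought by Pearson's r of log2 normalised counts over the 20 libraries, which share depth, share of reads on genes and cell makeup, among 12562 or 12563 genes with a mean of at least 50 normalised counts. Cdh5 ran closest to Epas1 (r = 0.956), Nr2f2 (0.955) and Ctdsp1 (0.946). F11r ran closest to Slc9a3r2 (0.946), Shisa5 (0.928) and Ctsb (0.898). Cldn5 was most like St3gal6 (0.927), Pglyrp1 and Flot1, and Pecam1 was most like Kdr (0.84), Rev1 and Prkd2. For Tjp1 the nearest were Has3 (0.884), Usp24 and Nova2, and for Esam they were Apba3 (0.879), Diablo and Gde1. Jam2 was nearest to Plxnc1 (0.925), Col6a6 and Tenm3, and Jam3 to Adam1a (0.937), Ada and Pcdhb16. Ocln and Ctnnb1 had the weakest likenesses, to Slc7a4 (0.712), Nek2 and Elmod2 for Ocln and to Glud1 (0.795) and Reln for Ctnnb1. None of the 10 had another of them among its nearest 3.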

How the data were processed

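RNA of sorted dermal LECs was made into full-length cDNA, and single-end reads of 100 nucleotides were sequenced. The authors mapped reads to mm10 with STAR and counted them on genes with HTSeq (Galaxy version 1.0.0) per the submitters' processing notes, and deposited raw counts per gene symbol for each library. The notes also name DESeq2 (Galaxy version 2.11.40.6). The annotation and the strand setting used for counting were not given in the sources used here. Libraries were grouped by their labels.

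The tests were run with edgeR 4.0.16 under R 4.3.3 (TMM scaling, filterByExpr, quasi-likelihood F-tests over all 20 libraries, Benjamini-Hochberg adjustment over the 19209 genes tested, threshold 0.05). Log2 values for likeness used a pseudocount of 1. Normalised counts are counts divided by the library's TMM-scaled size, with these sizes scaled to a geometric mean of 1. DESeq2 1.42.0, other normalizations, filters, covariates and left-out libraries were alternatives. The slope on the share of reads on genes was added after the counts were seen. The fits were also run on simulated counts with planted changes larger than most differences reported here. That run does not show how small a change they can find. Gene positions and lengths came from GENCODE M21 (GRCm38, the build of mm10), and 98.4% of the symbols matched. A gene with 3 counts makes up 7.14e-06% to 6.7e-05% of a library, a floor for counting error only, as amplified cDNA carried no molecular identifiers.

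The genes and lists were chosen with earlier results of these data known. Named were the 10 genes, in each partner list the genes with an adjusted p under 0.05 among time points or else the 3 with the smallest p, the 3 genes most like each, and the 3 highest markers of each list. Gja1, Gja4, Ccl21a and Dbp were named after their values were seen, and some genes that the rule names are not reported here. No 2 libraries agreed within sampling noise (lowest chi-square per degree of freedom 13.5).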

Additional observations from a re-analysis of the deposited data

Results flagged for a closer look

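Of the 40 groups of 5 libraries (10 junction genes at 4 time points), 1 held a library that stood apart by Dixon's test on log2(normalised count + 1), where chance gives about 2. It was Cdh5 at ZT13, where replicate 5 had 928 normalised counts and the next lowest library 3372. On that scale the gap was 0.717 of the range of the group, against a critical value of 0.71, and on the normalised counts themselves it was 0.522 and did not pass. In ZT13 replicate 5, 79.9% of reads were on genes, against 20.1% to 39.7% in the others of ZT13, and the part of this share in the low value of Cdh5 was not tested. On the normalised counts 4 other groups passed, each by its highest library: Cdh5 at ZT19 (replicate 4, 0.745), Esam at ZT7 (replicate 2, 0.735), Jam2 at ZT1 (replicate 1, 0.73) and Ocln at ZT13 (replicate 4, 0.762).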

How the results depend on the processing

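No junction gene passed among time points or for a rhythm in any alternative but 1: Cdh5 among time points without ZT19 replicate 4, where 0.899% of all genes passed (leaving out 1 library gave 0 to 1 genes). Between ZT1 and ZT19, DESeq2 called 2 (Cdh5, Tjp1; 10.5% of all genes), a keratinocyte marker covariate 1 (Cdh5; 10.7%), and leaving out 1 library gave 0 to 1 (Cdh5, without ZT19 replicate 4; 4.55%). Between ZT13 and ZT19, DESeq2 called 3 (with Jam2; 9.34%), and leaving out 1 library gave 0 to 1 (Cdh5, without ZT13 replicate 5, 4.3%, or ZT19 replicate 4, 0.712%). Of the partner genes, among time points DESeq2 called 2 (3.45% of all genes) and a transcript length offset 2 (0.651%), scaling to endothelial markers 1 (0.77%) and no filter on low counts 1 (0.429%), and leaving out 1 library gave 0 to 1, with 1 without ZT1 replicate 5, ZT7 replicate 2, ZT13 replicate 2, ZT13 replicate 3 or ZT19 replicate 1 (0.292% to 0.522% of all genes). The junction genes that moved with the share were 7 with the length offset (53% of all genes, 10183 of 19209, against 32.1%) and 1 to 5 with 1 library left out (1, F11r, without ZT13 replicate 5, with 20.9% of all genes; 5, with Cldn5 and Esam, without ZT13 replicate 3, with 36% of all genes), and Esam alone joined without ZT1 replicate 5, ZT13 replicate 4 or ZT19 replicate 1.

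Some differences turned sign: F11r (ZT19 minus ZT1) was -0.23 with the share as a covariate, and with the length offset Tjp1 was -0.13 and Ctnnb1 -0.25 (ZT1 minus ZT19). The cause was not tested. The median of all genes for ZT19 minus ZT1 was -0.39, with the share covariate 0.11 and with the length offset 0.24. With RLE scaling 1 junction gene, Cdh5, was without overlap between ZT1 and ZT19 (8.88% of all genes). The replicate block gave 0 junction genes among time points and 31 of all genes, against 81. No pair of time points had a correlation over 0.1 in all 5 same-numbered libraries, the bar set for pairing. ZT7 and ZT13 had 3 over 0.1, as did ZT13 and ZT19. ZT1 and ZT13 had 2 over 0.1, and all 5 of that pair were positive (0.079 to 0.325). Spread between pools limits Jam2 and Ocln most.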

Other observations

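Other markers in the same libraries gave further values. Of 20 endothelial markers, led by Flt4, Egfl7 and Kdr, edgeR called 0 among time points at an adjusted p under 0.05 and 2 at an unadjusted p under 0.05, and their summed normalised count ranged from 31017 to 80873. Of 14 blood endothelial markers, led by Emcn, Plvap and Gpihbp1, 0 were called (1 unadjusted), with sums of 6673 to 22940. Of 15 LEC markers tested, 0 were called (2 unadjusted), and of 16 keratinocyte markers, 7 were. Fibroblast markers, led by Sparc, Dcn and Ccdc80, gave 2 of 12, Sparc and Ccdc80, with sums of 10909 to 33917 at ZT1 and 2392 to 8588 at ZT7. Leukocyte markers (Mrc1, Ptprc and Fcer1g highest) and pericyte markers (Cspg4, Kcnj8 and Pdgfrb highest) gave 0 of 12 and 0 of 10 with 0 unadjusted in each, and melanocyte and Schwann cell markers (Dct, Mbp and Pmel highest) gave 0 of 10 (1 unadjusted). Among 6 clock genes, edgeR called Dbp, with means of 237, 766, 457 and 192 normalised counts at ZT1, ZT7, ZT13 and ZT19 (adjusted p = 0.0126 for a 24-h rhythm).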
